A study of Mus musculus with 12 samples.

Results

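The Nduf genes of the nucleus encode most subunits of respiratory complex I and a group of its assembly factors. They were taken as every protein-coding gene in the deposited tables whose symbol starts with Nduf, which gave 45 of 12441 genes. Their RNA was followed in macrophages grown for 6 days from mouse bone marrow in medium with 10% L929-conditioned medium, and sequenced in 12 libraries. The 4 groups had 3 libraries each. D316Y macrophages, homozygous for the D316Y substitution in COQ6, and wild-type (WT) macrophages were each examined after 24 h with 100 ng/mL lipopolysaccharide (LPS) and unstimulated. The labels give no age, strain or other allele. They do not tie the replicates to separate mice or cultures, so the tests measure library-to-library spread, which may be technical.

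Complex I, the NADH:ubiquinone oxidoreductase of the inner mitochondrial membrane, passes electrons from NADH to coenzyme Q and pumps protons. Its matrix arm holds the flavin and iron-sulfur clusters in nuclear-encoded core subunits, its membrane arm is built around core subunits encoded by mitochondrial DNA, and accessory subunits surround both arms. Assembly factors build the modules and then leave. COQ6 is a monooxygenase of coenzyme Q synthesis, so the electron acceptor of complex I is a product of the pathway altered in D316Y cells. In macrophages, complex I is known as a source of reactive oxygen species and as a point of metabolic change after LPS.

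The 45 genes were ordered by role: 7 core subunits and 9 accessory subunits of the matrix arm, 9 accessory subunits of the proximal and 10 of the distal membrane arm, the acyl carrier protein Ndufab1, 8 assembly factors, and Ndufa4, which is a subunit of complex IV in spite of its name. They lie on 17 chromosomes, with 6 of them on chromosome 17 and 2 on chromosome X. Every member had reads in every library, the fewest being 110, and every member passed the filter on low values. Ndufb1 and Ndufb4b, which also carry the name, were not analysed here. Exons of 18 members overlap those of another gene in GENCODE M21, and whether reads were counted by strand is not given in the sources used here. The overlap is widest for Ndufaf2, which shares 65.7% of its exon bases with a non-coding RNA on the opposite strand. It covers 39.0% of Ndufb6, shared with Smim27 on the opposite strand, and 30.0% of Ndufa13. On the same strand, Ndufb9 shares 19.5% of its exon bases with Gm49356. The values of these members are therefore uncertain.

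Library depth over the listed genes was 32.8 to 47.2 M reads. All 8 macrophage markers were listed, at a summed 32530 to 70810 CPM (read counts scaled to library size), against 13.9 to 63.7 CPM for the 6 of 10 neutrophil markers listed. None of the 4 lymphocyte or the 4 erythroid markers was in the tables. Summed neutrophil markers were 50.4 to 60.2 CPM in D316Y and 41.7 to 63.7 CPM in WT with LPS, against 21 to 34.6 and 13.9 to 24.1 CPM unstimulated. Macrophage markers were 54940 to 63790 CPM in D316Y and 64660 to 70810 CPM in WT with LPS, against 32530 to 35480 and 35130 to 39350 CPM. The 4 of 5 monocyte and progenitor markers listed were at 174 to 232 and 181 to 239 CPM with LPS, against 78.5 to 90.8 and 69.6 to 74.2 CPM, and the 3 of 5 dendritic cell markers at 20.4 to 21.6 and 13.4 to 17.3 CPM, against 2.81 to 4.25 and 2.98 to 3.51 CPM. These 4 lists were higher with LPS without overlap in both genotypes, and their part in the results was not tested. The 4 of 5 osteoclast markers overlapped in D316Y (96.1 to 147 CPM with LPS, against 54.6 to 123) and not in WT (98.1 to 135, against 38.3 to 71.5), and the 1 of 4 stromal markers listed was at most at 1.87 CPM. Both unstimulated replicate 1 libraries stood apart, with 0.949% (D316Y) and 0.449% (WT) of reads on mitochondrially encoded genes, against 1.97% to 2.97% in the other unstimulated libraries. WT LPS replicate 1 held 0.658%, against 0.849% to 1.10% in the other LPS libraries. Values without them stand beside the results whose call or size they move.

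Levels were compared between genes as CPM per kilobase of the principal coding transcript, averaged over the 12 libraries. They ran over 334-fold, with a median of 97.3 CPM per kb, and 21 of 45 members were above 100. Ndufa4 was the highest at 682 CPM per kb. Of the matrix arm, Ndufa7 reached 477 CPM per kb and the lowest accessory subunit, Ndufa5, 41.8. Core subunits were lower: Ndufs8, which carries a pair of iron-sulfur clusters, stood at 167 CPM per kb and Ndufs1, the largest core subunit, at 14.2. The proximal membrane arm ran between Ndufa3 at 350 and Ndufa10, a nucleoside kinase-like subunit, at 46.5 CPM per kb. The distal arm ran between Ndufb8 at 294 and Ndufb2 at 2.04 CPM per kb. Assembly factors had the low levels, with Ndufaf8 highest at 47.6 and Ndufaf4 lowest at 4.06 CPM per kb. Of the 6 members under 10 CPM per kb, 5 were assembly factors and the other was Ndufb2. The values of Ndufb2 and Ndufaf4 were divided by principal transcripts of 4371 and 3632 bases, against 680 for Ndufb8 and 781 for Ndufaf8. Their low levels per kb, and with Ndufb2 the 334-fold range, depend in part on those lengths.

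**Figure D1:**
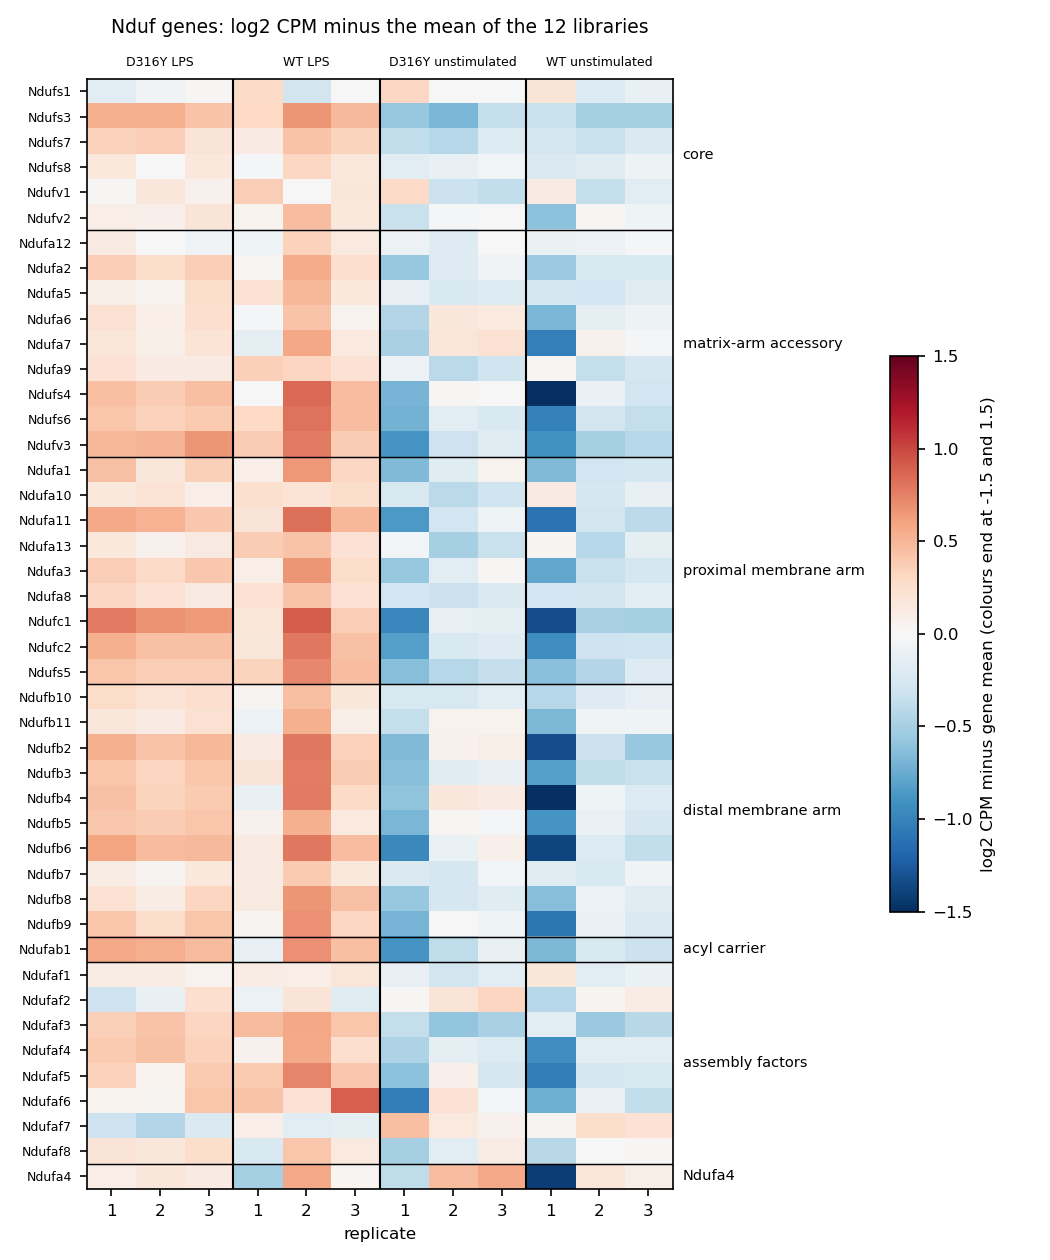
Log2 CPM of 44 of the 45 Nduf genes (rows, by role) in each of the 12 libraries (columns, by group and replicate), minus the gene's mean over the 12. Most rows are red in the LPS columns and blue in the unstimulated ones, the unstimulated replicate 1 columns are the darkest blue, and Ndufaf7 runs the other way in D316Y. The values are on the deposited scale; by total reads the median LPS difference in D316Y is -0.022.

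LPS raised much of the set in both genotypes on the deposited scale. In D316Y macrophages 22 of 45 members rose, 1 fell and 22 did not pass, where 19.2% of all 11918 genes tested rose and 18.9% fell. In WT macrophages 30 rose, 0 fell and 15 did not pass, where 17.8% of all genes rose and 18.7% fell (limma, Benjamini-Hochberg adjusted p under 0.05 over all genes tested). No WT member was lower at an unadjusted p under 0.05 either, where 23.2% of all genes were (limma). The median log2 difference of the members was 0.49 in D316Y and 0.62 in WT, against -0.03 and -0.01 for all genes tested. A log2 difference of 1 is a 2-fold difference. The 3 LPS libraries lay above the 3 unstimulated ones for 35 members in D316Y and 33 in WT, a pattern seen for 26.5% and 22.5% of all genes. Without each library of the comparison in turn, 14 of the 22 rises in D316Y, the fall of Ndufaf7, and 18 of the 30 rises in WT kept their call. In bulk RNA, fewer cells of a type and less RNA per cell cannot be told apart.

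Some rises lost their call when 1 library was left out, several of them with any of a few libraries. In many of these fits the difference itself moved little. The lost calls of Ndufb6, Ndufs4 and Ndufab1 are given with their classes. In D316Y the call was lost without unstimulated replicate 1 for Ndufb5 (log2 difference 0.41), Ndufb8 (0.44), Ndufa1 (0.39), Ndufa3 (0.43) and Ndufaf4 (0.57). It was lost without unstimulated replicate 2 for Ndufa1 (0.63) and Ndufa9 (0.35), and without unstimulated replicate 3 for Ndufa9 (0.40). Without LPS replicate 1 it was lost for Ndufb5 (0.63), Ndufb8 (0.55), Ndufb10 (0.45), Ndufa1 (0.53), Ndufa3 (0.59), Ndufa9 (0.39) and Ndufaf4 (0.66). Without LPS replicate 2 this held for Ndufb5, Ndufa3, Ndufa9 and Ndufaf4 (0.44 to 0.64), and without LPS replicate 3 for Ndufb5, Ndufb8, Ndufa1, Ndufa3 and Ndufa9 (0.44 to 0.62). In WT the call was lost without unstimulated replicate 1 for Ndufb4 (0.45), Ndufb5 (0.42), Ndufb9 (0.50), Ndufaf4 (0.45) and Ndufaf6 (0.75). It was lost without unstimulated replicate 2 for Ndufb7 (0.34) and Ndufa13 (0.39), and for Ndufaf6 without unstimulated replicate 3 (0.93), LPS replicate 1 (0.96) or LPS replicate 3 (0.72). Without LPS replicate 2 it was lost for Ndufb4 (0.69), Ndufb5 (0.515), Ndufb7 (0.30), Ndufb9 (0.64), Ndufb10 (0.36), Ndufa2 (0.475), Ndufa13 (0.47) and Ndufaf4 (0.57). Without LPS replicate 3 it was lost for Ndufb4 (0.93), Ndufb5 (0.71) and Ndufb9 (0.83). Every one of these members kept a positive difference in these fits. Without both unstimulated replicate 1 libraries, Ndufa1 in D316Y (0.39, adjusted p 0.0548) and Ndufb4 in WT (0.45, adjusted p 0.0696) no longer passed. Ndufa5 (0.35), Ndufa13 (0.53) and Ndufv1 (0.43) then also rose in D316Y, and Ndufa10 (0.42) and Ndufv1 (0.44) in WT.

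These rises are relative to the scaling of the deposited values. Their effective library size was 0.826 to 0.922 times the reads in the table in LPS libraries and 1.19 to 1.32 times in unstimulated ones. The 20 most abundant genes took 37.6% to 41.7% of reads with LPS and 25.5% to 27.0% without, and the ferritin gene Fth1 alone 11.5% to 14.1% and 3.11% to 4.57%. Scaled to total reads instead, an alternative added after the data were seen, the median of all genes moved to -0.55 in D316Y and -0.52 in WT. The members then had a median of -0.022 in D316Y, which turns its direction, and 0.11 in WT. On that scale 2 members rose and 5 fell in D316Y (8.75% and 49.4% of all genes), and 6 rose and 4 fell in WT (7.66% and 49.6%). Those that fell were Ndufa12, Ndufaf2, Ndufaf7, Ndufs1 and Ndufs8 in D316Y and Ndufa12, Ndufaf1, Ndufaf7 and Ndufs1 in WT. Relative to the median of all genes, the members' median was 0.52 in D316Y and 0.62 in WT as deposited, and 0.53 and 0.63 by total reads. As a share of all reads, the 45 genes took 0.532%, 0.512% and 0.547% in D316Y LPS and 0.467%, 0.595% and 0.513% in WT LPS libraries. They took 0.438%, 0.594% and 0.622% in unstimulated D316Y and 0.375%, 0.549% and 0.538% in unstimulated WT (95% Wilson half-width at most 0.00251 points, counting error only). The shares with and without LPS overlap in both genotypes.

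**Figure D2:**
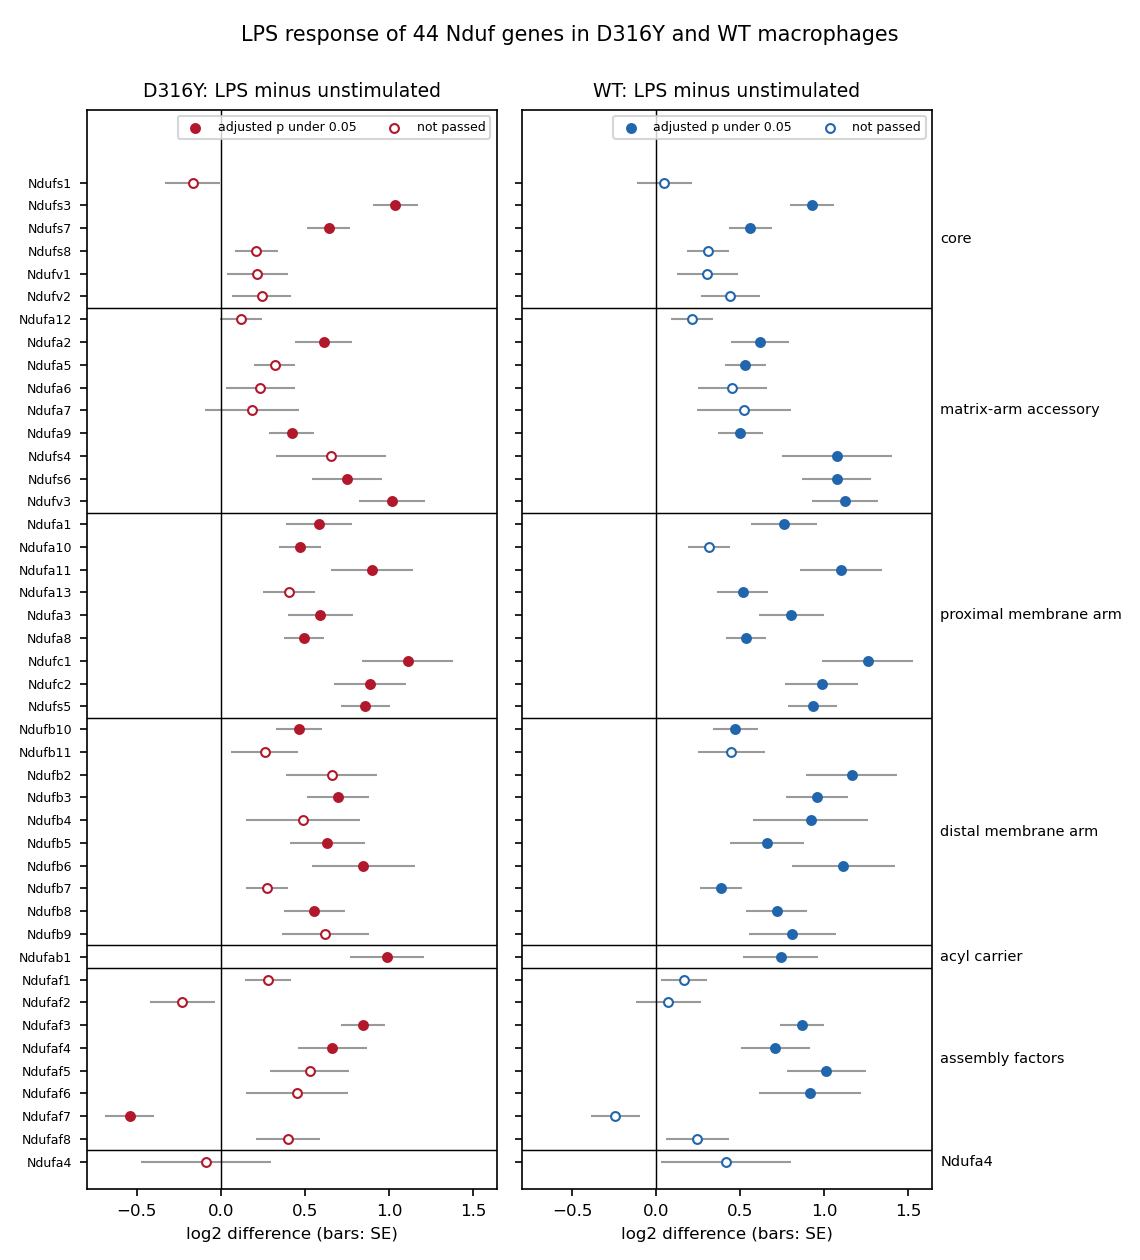
Log2 difference LPS minus unstimulated of 44 of the 45 Nduf genes, D316Y left and WT right, with its SE, on the deposited scale; filled points passed at adjusted p under 0.05. In D316Y 22 genes rose and Ndufaf7 fell, and in WT 30 rose; by total reads 2 rose and 5 fell in D316Y, and 6 rose and 4 fell in WT.

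Of the 7 core subunits of the matrix arm, the same 2 rose in both genotypes, Ndufs3 and Ndufs7, and the other 5 did not pass. Ndufs3, part of the module that reduces coenzyme Q, had 6.40, 6.41 and 6.30 log2 CPM in D316Y LPS libraries, against 5.30, 5.18 and 5.51 unstimulated. WT libraries had 6.17, 6.53 and 6.35 log2 CPM with LPS, against 5.53, 5.37 and 5.38. The groups do not overlap, and the replicate 1 libraries are not apart from the others in unstimulated cells. Its rise was 1.04 (SE 0.13, adjusted p 3.38e-05, 2.05-fold) in D316Y and 0.93 (SE 0.13, adjusted p 9.78e-05, 1.90-fold) in WT. By total reads it still rose, by 0.52 and 0.42 log2. Ndufs7, which carries the last iron-sulfur cluster before coenzyme Q, rose by 0.64 in D316Y and 0.56 in WT, but is not among the members that rose by total reads. Ndufs8, Ndufv1 and Ndufv2 had differences of 0.21 to 0.24 in D316Y and 0.30 to 0.44 in WT, with adjusted p of 0.212 to 0.384 and 0.0684 to 0.221. Without WT LPS replicate 1, Ndufs8 rose by 0.39 (adjusted p 0.0441) in WT. Ndufv1 binds NADH and the flavin. Ndufs1 gave -0.17 in D316Y and 0.05 in WT. By total reads it fell by 0.68 (adjusted p 0.00397) in D316Y and by 0.46 (adjusted p 0.0311) in WT.

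Among the 9 accessory subunits of the matrix arm, 4 rose in D316Y (Ndufa2, Ndufa9, Ndufs6 and Ndufv3) and 6 in WT, those 4 with Ndufa5 and Ndufs4. Ndufv3, bound beside the NADH site, had 7.69, 7.70 and 7.85 log2 CPM in D316Y LPS libraries, against 6.30, 6.88 and 7.0 unstimulated. The WT values were 7.57, 7.96 and 7.57 with LPS, against 6.28, 6.69 and 6.76. All LPS libraries are above all unstimulated ones. The rise was 1.02 (SE 0.19, adjusted p 0.000957) in D316Y and 1.12 (SE 0.19, adjusted p 0.000491) in WT; by total reads it was 0.61 and past the threshold in WT, with 0.50 (adjusted p 0.0522) in D316Y. Ndufs4, whose loss causes Leigh-like disease in mice, had 7.25, 7.18 and 7.25 log2 CPM in D316Y LPS libraries, against 6.11, 6.81 and 6.81 unstimulated. In WT it had 6.79, 7.65 and 7.26 with LPS, against 5.26, 6.70 and 6.51. The lowest unstimulated value in each genotype is replicate 1. Its difference was 0.65 (SE 0.33, adjusted p 0.135) in D316Y and 1.08 (SE 0.33, adjusted p 0.0197) in WT; the WT call was lost without unstimulated replicate 1 (0.63, adjusted p 0.0576), LPS replicate 2 (0.87, adjusted p 0.0915) or LPS replicate 3 (1.06, adjusted p 0.0557). Ndufs6, a zinc-binding subunit, rose by 0.75 in D316Y and 1.07 in WT. Ndufa2 rose by 0.61 in D316Y and 0.62 in WT, and Ndufa9, which holds NADPH near the coenzyme Q site, by 0.42 and 0.50. Ndufa5 gave 0.32 (adjusted p 0.0558) in D316Y and rose by 0.53 in WT. Ndufa6, Ndufa7 and Ndufa12 did not pass in either genotype, with 0.23, 0.18 and 0.12 in D316Y and 0.45, 0.52 and 0.21 in WT.

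In the proximal membrane arm 8 of 9 members rose in D316Y, all but Ndufa13, and 8 of 9 in WT, all but Ndufa10. Ndufc1, a small membrane-arm subunit, had the largest rise of all members in both genotypes. It had 7.89, 7.79 and 7.75 log2 CPM in D316Y LPS libraries, against 6.13, 6.99 and 6.97 unstimulated. WT libraries had 7.29, 8.02 and 7.48 with LPS, against 5.78, 6.62 and 6.62. Every LPS library is above every unstimulated one, and the lowest value of each unstimulated group is again replicate 1. The rise was 1.11 (SE 0.27, adjusted p 0.00523, 2.16-fold) in D316Y and 1.26 (SE 0.27, adjusted p 0.00248, 2.39-fold) in WT. Ndufa11, which sits beside the mitochondrially encoded subunits, had 7.93, 7.88 and 7.76 log2 CPM in D316Y LPS libraries, against 6.50, 7.08 and 7.29 unstimulated. The WT values were 7.55, 8.18 and 7.85 with LPS, against 6.25, 7.08 and 6.96. The rise was 0.90 (SE 0.24, adjusted p 0.00974) in D316Y and 1.10 (SE 0.24, adjusted p 0.00299) in WT. Ndufc2, the partner of Ndufc1, rose by 0.89 in D316Y and 0.98 in WT, and Ndufs5, a subunit on the intermembrane-space side, by 0.86 and 0.93. The other proximal members that rose in both were Ndufa1 (0.59 and 0.76), Ndufa3 (0.59 and 0.80) and Ndufa8 (0.49 and 0.53). Ndufa13, also known as GRIM-19, gave 0.41 (adjusted p 0.0517) in D316Y and rose by 0.51 in WT, while Ndufa10 rose by 0.47 in D316Y and gave 0.31 (adjusted p 0.0623) in WT. By total reads, Ndufc1 and Ndufs5 were the proximal members that rose, and only in WT (0.75 and 0.42); in D316Y they gave 0.60 and 0.34, with adjusted p of 0.0869 and 0.0594.

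Of the 10 distal membrane-arm subunits, 5 rose in D316Y (Ndufb3, Ndufb5, Ndufb6, Ndufb8 and Ndufb10) and 9 in WT, all but Ndufb11. Ndufb6 had 7.44, 7.32 and 7.32 log2 CPM in D316Y LPS libraries, against 5.87, 6.74 and 6.92 unstimulated. In WT it had 6.98, 7.64 and 7.30 with LPS, against 5.46, 6.64 and 6.47. The groups do not overlap. Its rise was 0.85 (SE 0.31, adjusted p 0.0431) in D316Y and 1.11 (SE 0.31, adjusted p 0.0116) in WT; the D316Y call was lost without unstimulated replicate 1 (0.53, adjusted p 0.171) or 2 (0.96, adjusted p 0.0521) and without LPS replicate 1 (0.81, adjusted p 0.110), 2 (0.87, adjusted p 0.0909) or 3 (0.86, adjusted p 0.0868). The WT call was lost without LPS replicate 2 (0.95, adjusted p 0.0563). Ndufb2, the member with the fewest reads of its class, had 3.59, 3.49 and 3.55 log2 CPM in D316Y LPS libraries, against 2.39, 3.12 and 3.14 unstimulated. WT libraries had 3.17, 3.85 and 3.40 with LPS, against 1.72, 2.73 and 2.48. It gave 0.66 (SE 0.27, adjusted p 0.0719) in D316Y and rose by 1.16 (SE 0.27, adjusted p 0.00416) in WT. Of its exon bases, 2.59% overlap Braf on the opposite strand and 2.58% overlap Gm42420 on the same strand. Ndufb3 rose by 0.70 in D316Y and 0.96 in WT, Ndufb8 by 0.56 and 0.72, Ndufb5 by 0.63 and 0.66, and Ndufb10 by 0.46 and 0.47. Ndufb4, Ndufb7 and Ndufb9 gave 0.49, 0.27 and 0.62 in D316Y without passing and rose by 0.92, 0.39 and 0.81 in WT, Ndufb4 with overlapping libraries. Ndufb11, encoded on the X chromosome, gave 0.26 (adjusted p 0.334) in D316Y and 0.44 (adjusted p 0.0995) in WT. By total reads no distal member rose in either genotype.

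Ndufab1, the mitochondrial acyl carrier protein, which complex I holds in each arm and which also serves lipoate synthesis, rose in both genotypes. It had 7.13, 7.12 and 7.05 log2 CPM in D316Y LPS libraries, against 5.68, 6.19 and 6.46 unstimulated. The WT values were 6.44, 7.25 and 7.02 with LPS, against 5.90, 6.34 and 6.25. The rise was 0.99 (SE 0.22, adjusted p 0.00299) in D316Y and 0.74 (SE 0.22, adjusted p 0.0183) in WT. The WT call was lost without unstimulated replicate 1 (0.61, adjusted p 0.0585), LPS replicate 2 (0.57, adjusted p 0.0869) or LPS replicate 3 (0.68, adjusted p 0.0668). Ndufab1 is 1 of 7 members whose LPS difference was the larger in D316Y.

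The 8 assembly factors split. In D316Y, Ndufaf3 and Ndufaf4 rose, Ndufaf7 fell and 5 did not pass. In WT, Ndufaf3, Ndufaf4, Ndufaf5 and Ndufaf6 rose and 4 did not pass. Ndufaf3 and Ndufaf4 act together on the coenzyme Q module. Ndufaf3 had 5.06, 5.12 and 5.01 log2 CPM in D316Y LPS libraries, against 4.34, 4.10 and 4.21 unstimulated. In WT it had 5.17, 5.27 and 5.11 with LPS, against 4.52, 4.14 and 4.28. The 6 LPS libraries are at least 5.01 and the 6 unstimulated ones at most 4.52. Its rise was 0.85 (SE 0.13, adjusted p 0.000153) in D316Y and 0.87 (SE 0.13, adjusted p 0.000140) in WT, and by total reads 0.33 and 0.36, still past the threshold. Ndufaf7, a methyltransferase that acts in assembly of the matrix arm, had 3.42, 3.29 and 3.52 log2 CPM in D316Y LPS libraries, against 4.18, 3.88 and 3.79 unstimulated. WT libraries had 3.83, 3.57 and 3.58 with LPS, against 3.77, 4.00 and 3.95. The D316Y groups do not overlap and the WT groups do. It fell by 0.54 (SE 0.15, adjusted p 0.00973) in D316Y and gave -0.24 (SE 0.15, adjusted p 0.218) in WT. By total reads it fell in both, by 1.06 and 0.75. Ndufaf5, which hydroxylates Ndufs7, gave 0.53 (adjusted p 0.0958) in D316Y and rose by 1.01 in WT. Ndufaf4 rose by 0.66 in D316Y and 0.71 in WT, and Ndufaf6 gave 0.45 (adjusted p 0.266) in D316Y and rose by 0.92 in WT. Ndufaf1 (0.28 and 0.16), Ndufaf2 (-0.23 and 0.07) and Ndufaf8 (0.40 and 0.25) passed in neither D316Y nor WT.

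Ndufa4, the complex IV subunit, was the most abundant member and did not pass in either genotype. It had 8.72, 8.79 and 8.74 log2 CPM in D316Y LPS libraries, against 8.24, 9.09 and 9.19 unstimulated. The WT values were 8.12, 9.19 and 8.65 with LPS, against 7.20, 8.80 and 8.71. The groups overlap, and replicate 1 is the lowest of each group, by a narrow gap only in D316Y with LPS. Its LPS difference was -0.09 (SE 0.39, adjusted p 0.884) in D316Y and 0.42 (SE 0.39, adjusted p 0.437) in WT.

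**Figure D3:**
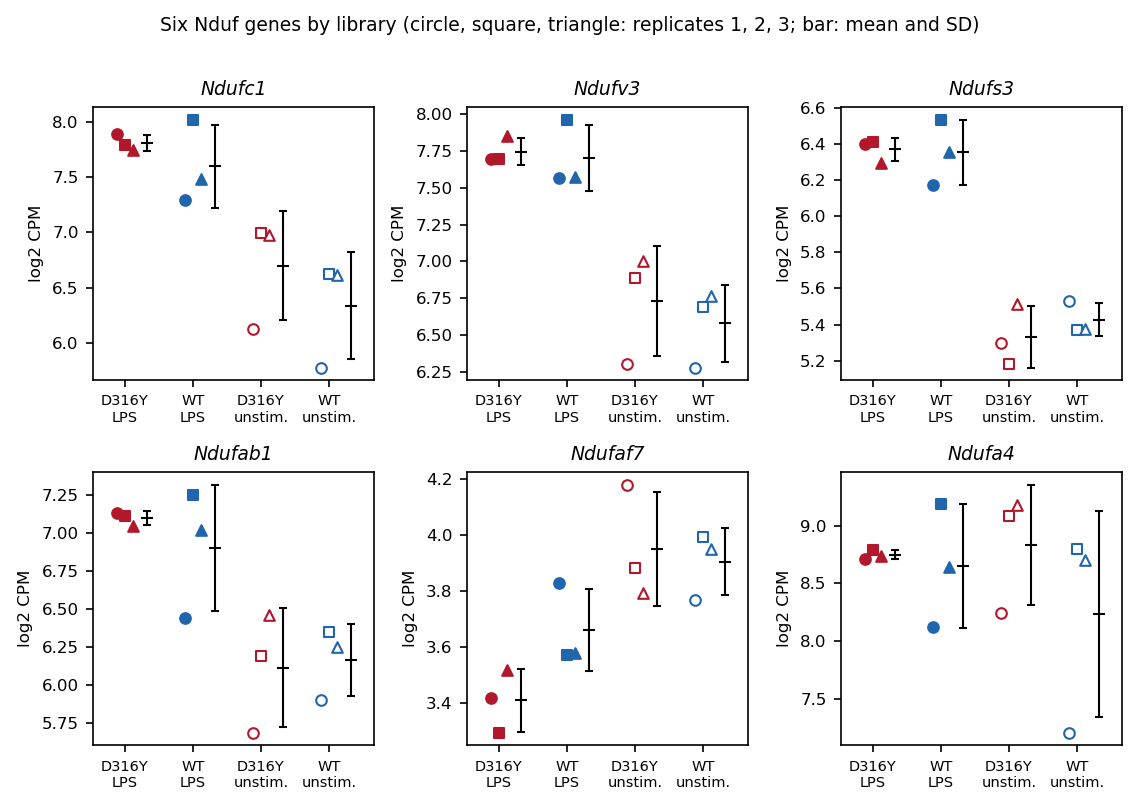
Log2 CPM of 6 Nduf genes by library, in the groups D316Y LPS, WT LPS, D316Y unstimulated and WT unstimulated; marker shapes are replicates and bars are mean and SD. Ndufs3 separates LPS from unstimulated libraries in both genotypes, Ndufaf7 is lower with LPS in D316Y, and Ndufa4 overlaps, with unstimulated WT replicate 1 at 7.20.

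Differences between classes within a library do not move with scaling. The mean log2 CPM of the proximal subunits minus that of the core subunits was 0.74, 0.62 and 0.65 in D316Y LPS libraries, against 0.04, 0.48 and 0.48 in unstimulated D316Y. In WT it was 0.50, 0.82 and 0.59 with LPS, against -0.02, 0.38 and 0.40 unstimulated. The LPS libraries do not overlap the unstimulated ones in either genotype. For the distal subunits the same difference overlapped, at 0.08, -0.04 and 0.08 in D316Y LPS libraries, against -0.55, 0.10 and 0.02, and at -0.25, 0.24 and -0.07 in WT LPS libraries, against -0.90, -0.05 and -0.17. The accessory minus core difference of the matrix arm overlapped too, at 0.47, 0.36 and 0.48 in D316Y LPS libraries, against 0.02, 0.51 and 0.45, and at 0.26, 0.64 and 0.37 in WT LPS libraries, against -0.21, 0.37 and 0.32. So did assembly factors minus core, at -2.98, -3.03 and -2.86 in D316Y LPS libraries, against -3.13, -2.71 and -2.84, and at -2.97, -2.88 and -2.91 in WT LPS libraries, against -3.25, -2.80 and -2.87. The proximal difference was thus the 1 of 4 that separated the libraries. These are descriptions with no test, as the classes were set with earlier results known.

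The 2 genotypes shared most of their rises. Of the members, 21 rose in both, which is 70.0% of those in WT and 95.5% of those in D316Y, and 13 passed in neither genotype. The overlap over all genes was not counted, so these shares are not shown to be particular to the members. Those that rose in WT and did not pass in D316Y were Ndufa5, Ndufa13, Ndufb2, Ndufb4, Ndufb7, Ndufb9, Ndufs4, Ndufaf5 and Ndufaf6, and Ndufa10 was the reverse. Across the 45 members the LPS differences of the genotypes had a Pearson r of 0.862, over points that share libraries. The LPS difference was smaller in D316Y for 38 of 45 members, with a median interaction (LPS difference in D316Y minus that in WT) of -0.15; 51.7% of all genes were above 0. The interaction was tested directly: 0 of 45 members passed, 0 had an unadjusted p under 0.05, and 0% of all genes passed, with 2.11% at an unadjusted p under 0.05 (limma). The member with the smallest p was Ndufaf5, at -0.48 (SE 0.33, adjusted p 0.999). Without WT unstimulated replicate 1 the median was 0.01, with 22 members below 0 and 23 above, and without WT LPS replicate 2 it was -0.03, with 27 below 0 and 18 above. Without both unstimulated replicate 1 libraries it was -0.11, with 37 below 0 and 8 above. The difference in the number of calls between the genotypes is thus not shown to be a difference in response.

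D316Y and WT were then compared within each condition. With LPS, 0 of 45 members passed, where 0.0442% of 11306 genes did, and 0 had an unadjusted p under 0.05, where 6.5% of all genes did (limma). The median difference was -0.03, with 18 members above 0 and 27 below, where 49.2% of all genes were above. The 95% intervals of the 45 differences lay between -0.82 and 0.58. Among the members with the smallest p-values were Ndufa13, Ndufaf7 and Ndufaf6. Ndufa13 had 7.40, 7.30 and 7.37 log2 CPM in D316Y LPS libraries, against 7.63, 7.67 and 7.46 in WT LPS libraries, with no overlap and a difference of -0.23 (95% interval -0.48 to 0.03, adjusted p 0.798). Ndufaf7 gave -0.25 and Ndufaf6, which acts early in assembly, -0.34. The D316Y libraries were all below the WT libraries for 6 members, among them Ndufa9, Ndufa10, Ndufa13, Ndufaf5 and Ndufaf7, and all above for 0, where 6.79% of all genes were below in this way and 5.7% above. Without WT LPS replicate 1 the median was -0.13 with 3 members above 0, and without WT LPS replicate 2 it was 0.10 with 29 above 0. By total reads the median was 0.01.

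Unstimulated, 0 of 45 members passed, where 0.00868% of 11525 genes did, and 0 had an unadjusted p under 0.05, where 2.92% of all genes did (limma). The median difference was 0.10, with 29 members above 0 and 16 below, where 46.2% of all genes were above, and the intervals lay between -0.68 and 1.63. Ndufb2 had the smallest p, at 0.57 (95% interval -0.15 to 1.29, adjusted p 0.942). Ndufa10 gave -0.24, Ndufaf2, a late-acting factor related to Ndufa12, 0.27, and Ndufa4 0.60 (95% interval -0.43 to 1.63). No member separated the groups, where 8.13% of all genes did. Without WT unstimulated replicate 1 the median was -0.04, with 16 members above 0. The unstimulated replicate 1 libraries deviated together, and with both left out the median became 0.10, with 28 members above 0. For replicates 2 and 3 a pairing by number is not shown, so the next comparison by number is a description only. The share of reads on the 45 genes was the higher in D316Y in each of the 3 same-numbered pairs, at 0.438%, 0.594% and 0.622%, against 0.375%, 0.549% and 0.538% in WT. None of the 45 members was, in the authors' deposited tables, past an adjusted p of 0.05 in either condition, where 10 genes were with LPS and 7 unstimulated. The authors' deposited table gave Ndufaf6 a log2 difference of -0.588 (unadjusted p 0.00894, adjusted p 0.265) with LPS. Unstimulated, their table gave Ndufb2 one of 0.566 (unadjusted p 0.00261, adjusted p 0.148). Ndufa10, Ndufc1 and Ndufa4 also had an unadjusted p under 0.05 in that table (0.0355, 0.0447 and 0.0472). The limma fits of 6 libraries reported above gave no member under that level.

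**Figure D4:**
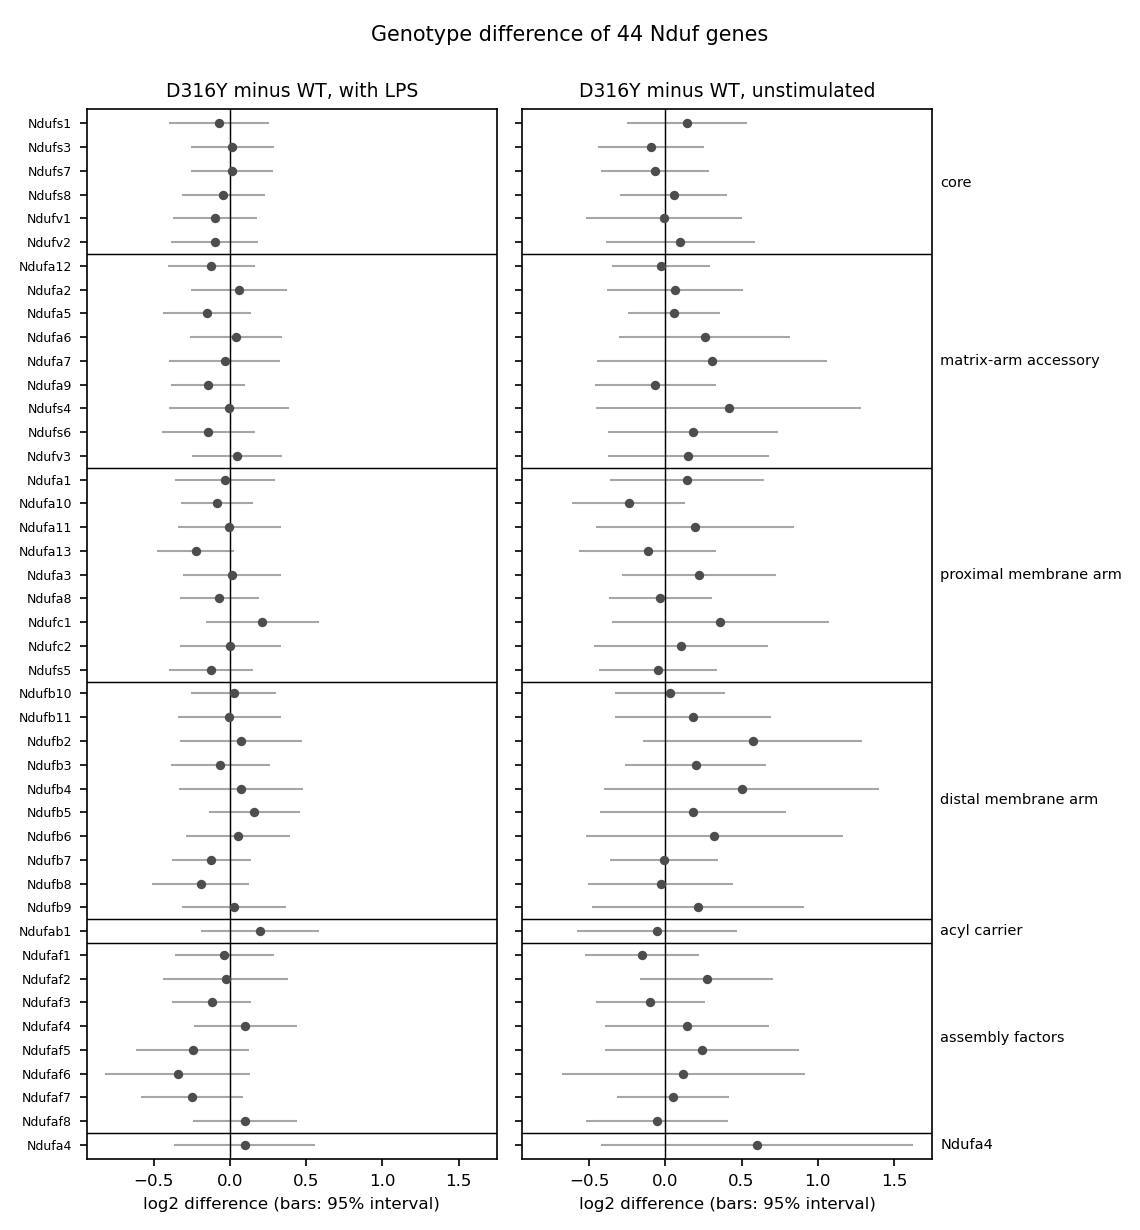
Log2 difference D316Y minus WT of 44 of the 45 Nduf genes with its 95% interval, with LPS left and unstimulated right. No gene passed in either condition; the intervals are wider in unstimulated cells, reaching 1.63 for Ndufa4.

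The members moved together in the replicate 1 libraries, in a way that the groups do not set. Replicate 1 minus the mean of replicates 2 and 3 had a median over the members of -0.41 log2 in unstimulated D316Y, with 34 of 45 below 0, and of -0.45 in unstimulated WT, with 35 below 0. The medians of all genes were 0.04 and 0.08. With LPS it was 0.04 in D316Y and -0.28 in WT, with 13 and 39 members below 0. Across the 45 members the unstimulated D316Y and WT deviations had a Pearson r of 0.859, as a description. The lowest were Ndufaf6 (-1.13), Ndufb6 (-0.96) and Ndufa4 (-0.90) in D316Y and Ndufa4 (-1.55), Ndufb4 (-1.40) and Ndufs4 (-1.34) in WT. Those above 0 in both included the core subunits Ndufv1 (0.63 and 0.40) and Ndufs1 (0.32 and 0.35). Members with a principal transcript under 1000 bases had medians of -0.48 in D316Y and -0.50 in WT, against -0.07 and -0.15 for the 22 longer ones. For the LPS difference the same split gave 0.56 and 0.62 for the 23 short members, against 0.46 and 0.59 for the longer ones. Without both unstimulated replicate 1 libraries the LPS comparison called 25 rises in D316Y and 32 in WT, where 22.1% and 20.6% of all genes rose. The part of mitochondrial read share, transcript length or handling in this pattern was not tested.

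**Figure D5:**
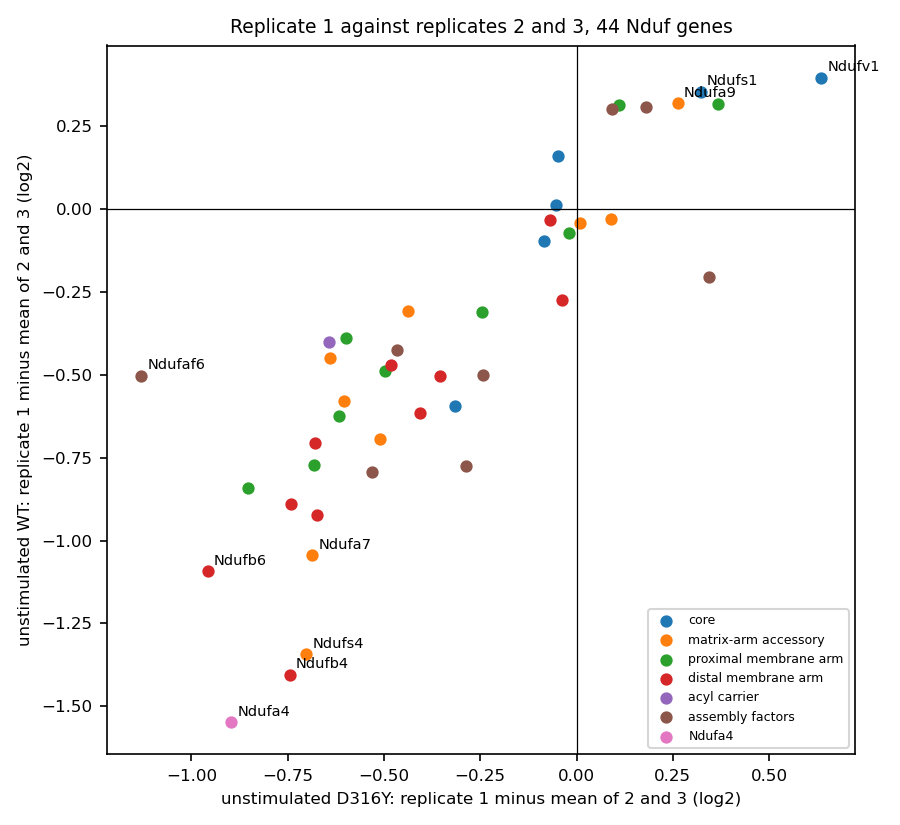
Replicate 1 minus the mean of replicates 2 and 3 (log2) of 44 of the 45 Nduf genes in unstimulated D316Y (x axis) and unstimulated WT (y axis), coloured by role. Most points lie at the lower left, with Ndufa4 lowest at -1.55 in WT, and Ndufv1 and Ndufs1 at the upper right.

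Other genes of the pathway were followed from lists. None of 11 assembly factors without an Nduf name rose with LPS, and Tmem186 of the early assembly complex fell by 0.55 (adjusted p 0.0325) in WT, with -0.44 (adjusted p 0.0758) in D316Y. The WT call was lost without unstimulated replicate 1 (adjusted p 0.0709), 2 (0.0545) or 3 (0.0818) or LPS replicate 2 (0.133), and by total reads Tmem186 fell in both, by 0.96 in D316Y and 1.06 in WT. The count of rises among the 11 moved with the libraries used. In WT 2 rose without LPS replicate 1 (16.4% of all genes), and 1 rose without unstimulated replicate 2 or 3 (15.5% and 15.1%). In D316Y 1 rose without unstimulated replicate 3 (17.8% of all genes), and 1 without both unstimulated replicate 1 libraries (22.1%). By total reads 5 fell in D316Y and 6 in WT, where 49.4% and 49.6% of all genes fell. Of the 7 mitochondrially encoded complex I subunits, mt-Nd3 fell by 1.59 (SE 0.43, adjusted p 0.00963) in D316Y, with -0.79 (adjusted p 0.170) in WT. It had 4.66, 4.60 and 4.73 log2 CPM in D316Y LPS libraries, against 5.60, 6.65 and 6.49 unstimulated, and 4.45, 5.04 and 4.36 in WT LPS libraries, against 4.12, 6.15 and 5.96. The other 6 passed in neither, and the medians of the 7 were -0.61 in D316Y and -0.31 in WT, against 0.49 and 0.62 for the nuclear members. These values turned on the unstimulated replicate 1 libraries. Without both of them the medians were -1.05 in D316Y and -0.98 in WT. Then 6 of 7 fell in D316Y and 7 of 7 in WT, where 21.6% and 20.7% of all genes fell. In that fit mt-Nd3 fell by 1.91 (adjusted p 1.14e-06) in D316Y and 1.44 (adjusted p 1.67e-05) in WT. Those 2 libraries had been set apart by their low share of mitochondrially encoded reads, so leaving them out is not independent of these genes. With only the unstimulated replicate 1 library of the tested genotype left out, 1 fell in D316Y and 3 in WT (17.1% and 17.6% of all genes). Without unstimulated replicate 2 the medians were -0.30 in D316Y and 0.03 in WT, and without WT unstimulated replicate 3 the WT median was 0.02. By total reads the medians were -1.13 and -0.82, with mt-Nd3 past the threshold in both. Of 7 complex II genes, Sdhb (0.91 and 0.98), Sdhd (0.89 and 0.91) and Sdhaf2 (0.74 and 0.61) rose in both D316Y and WT. By total reads Sdhb (0.39 and 0.47) and Sdhd (0.38 and 0.40) still rose, and Sdhaf2 gave 0.23 (adjusted p 0.133) and 0.10 (adjusted p 0.516). Of 9 regulators of nuclear respiratory genes, Ppargc1b, a coactivator of mitochondrial genes, rose by 1.46 in D316Y and 1.41 in WT, and by 0.95 and 0.90 by total reads. Esrra, its partner receptor, rose by 1.27 (adjusted p 0.0494) in D316Y and gave 0.37 (adjusted p 0.585) in WT, with an interaction of 0.90 (adjusted p 0.999). The D316Y call was lost without unstimulated replicate 1 (0.72, adjusted p 0.204) or 2 (adjusted p 0.0750), without LPS replicate 1 (adjusted p 0.110), 2 (0.103) or 3 (0.101), and by total reads (0.75, adjusted p 0.195). The WT value was 0.05 without unstimulated replicate 1, 0.86 without LPS replicate 1, 0.03 without LPS replicate 2 and -0.14 by total reads. Nrf1 gave -0.37 (adjusted p 0.0729) in D316Y and -0.40 (adjusted p 0.0560) in WT. It passed in WT without LPS replicate 3 (-0.51, adjusted p 0.0308), and by total reads fell in both, by 0.88 in D316Y and 0.91 in WT. The 4 processed Nduf pseudogenes in the tables, which are not members and can share reads with Ndufb4, Ndufab1, Ndufa11 and Ndufs6, had median differences of 0.71 in D316Y and 1.08 in WT; 1 and 4 of them rose.

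Promoters were read from RefSeq (GRCm38.p6), as windows of 250 bases before to 50 after the start, and matched 40 of the 45 members with 42 windows. The NRF1 motif, searched on both strands like the others, was in 10 of 42 member windows (23.8%), against 4.60% of all 32851. The windows of Ndufa5 overlap and hold the same NRF1 site, which is counted in both. The YY1 motif AANATGGCG was in 8 (19.0%, against 2.38%), and the ETS motif CCGGAAG of the GABP factor in 6 (14.3%, against 8.86%). The SP1 motif GGGCGG was in 22 (52.4%, against 35.7%) and the kappaB motif in 8 (19.0%, against 20.7%). Median GC content was 59.3% in member windows and 52.7% in all. Ndufb4 held 3 NRF1 matches. The sequences below belong to Ndufaf7, the member that fell, Ndufc1, the largest rise, and Ndufb6 and Ndufa11, rises that hold an ETS and an NRF1 match, shown as the upstream bases that no GENCODE M21 exon covers. They run 5′ to 3′ on the gene's strand, and capitals mark an NRF1, ETS or YY1 match on either strand.
Ndufaf7, chr17:78937067-78937134, plus strand: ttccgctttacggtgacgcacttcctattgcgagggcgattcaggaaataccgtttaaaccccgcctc
Ndufc1, chr3:51408989-51409205, minus strand: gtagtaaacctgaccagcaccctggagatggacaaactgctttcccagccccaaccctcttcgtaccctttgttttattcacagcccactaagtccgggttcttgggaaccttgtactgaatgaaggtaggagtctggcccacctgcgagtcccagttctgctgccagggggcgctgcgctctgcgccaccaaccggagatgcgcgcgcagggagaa
Ndufb6, chr4:40279422-40279671, minus strand: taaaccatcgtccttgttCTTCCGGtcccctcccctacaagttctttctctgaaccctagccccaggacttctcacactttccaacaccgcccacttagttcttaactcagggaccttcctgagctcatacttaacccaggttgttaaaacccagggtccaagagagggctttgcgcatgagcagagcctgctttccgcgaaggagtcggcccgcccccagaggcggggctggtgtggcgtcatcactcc
Ndufa11, chr17:56717686-56717761, plus strand: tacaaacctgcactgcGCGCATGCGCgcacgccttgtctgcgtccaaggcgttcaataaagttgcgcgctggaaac
The match in Ndufa11 lies 60 to 51 bases before the start, and that in Ndufb6 lies near the 5′ end of its stretch. Ndufc1 holds a YY1 match after its start, outside the printed stretch, and Ndufs3 an ETS match 27 to 21 bases before its start and another just after its first base. A match is a description of letters and says nothing of binding.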

How the data were processed

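RNA was measured in 12 libraries of bone marrow-derived macrophages. The authors deposited log2 CPM values of every library, with the log2 difference, p-value and adjusted p-value of each genotype comparison, per the file headers. The submitters' processing notes name limma, edgeR, featureCounts 1.4.6-p5 from Subread, STAR 2.5.1a and bcl2fastq. Build, annotation and low-value filter: not given in the sources used here. Repeated gene entries were taken once. Read numbers (32.8 to 47.2 M per library) were recovered from the log2 values by taking 0.5 as the count offset and solving for each library's effective size; of the values below 200 reads, 100% came out whole to within 0.01. Intervals on shares cover counting error only, since the reads carry no molecular identifiers.

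Tests used limma 3.58.1 (R 4.3.3; eBayes with trend and robust, two-sided) on genes whose mean reached 0 log2 CPM in any group of the fit, with Benjamini-Hochberg adjustment over all of them and a threshold of 0.05. The deposited values were log2 CPM and limma was run on them. No count model was run on the recovered reads. Genotypes were compared within 6 libraries; LPS responses and the interaction came from a single fit of all 12. The code was tested on simulated data. Lengths, positions and overlaps came from GENCODE M21 (GRCm38). Named members are, by rule, the 6 largest rises and falls past the threshold without overlap per LPS comparison, the 4 smallest p-values per genotype comparison, the highest and lowest level per kb of each class, and up to 4 genes of each further list; others were named after their values were seen. The values of 1 member are not reported here, although it is in the counts and medians; the figures show the other 44. Members, roles and lists were chosen with earlier results of these data known. Deviations of same-numbered unstimulated D316Y and WT libraries from their group means had correlations of 0.656, 0.631 and 0.200. D316Y replicate 2 with WT replicate 3 gave 0.402, and D316Y replicate 3 with WT replicate 2 gave 0.320. The replicate 1 libraries thus deviated together, while a pairing of replicates 2 and 3 by number is not shown. The replicate block changed no member's call in the unstimulated genotype comparison. Other settings tried were filters, scalings, moderation, array weights, the samples in the fit, the block and leaving out libraries.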

Additional observations from a re-analysis of the deposited data

How the results depend on the processing

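Scaling decided most. By total reads, added after the data were seen, 2 members rose and 5 fell with LPS in D316Y and 6 rose and 4 fell in WT, and the median was -0.022 in D316Y and 0.11 in WT. Of the 44 members given by value, 18 turned there in D316Y and 15 in WT, most of them without passing in either scaling. In D316Y they were Ndufb10 (-0.051), Ndufb11 (-0.26), Ndufb4 (-0.026), Ndufb7 (-0.24), Ndufa12 (-0.40), Ndufa5 (-0.20), Ndufa6 (-0.28), Ndufa7 (-0.33), Ndufa9 (-0.095), Ndufa10 (-0.045), Ndufa13 (-0.11), Ndufa8 (-0.022), Ndufaf1 (-0.23), Ndufaf6 (-0.061), Ndufaf8 (-0.12), Ndufs8 (-0.30), Ndufv1 (-0.30) and Ndufv2 (-0.27). In WT they were Ndufb10 (-0.038), Ndufb11 (-0.064), Ndufb7 (-0.12), Ndufa12 (-0.30), Ndufa6 (-0.056), Ndufa9 (-0.010), Ndufa10 (-0.19), Ndufaf1 (-0.35), Ndufaf2 (-0.44), Ndufaf8 (-0.26), Ndufa4 (-0.093), Ndufs1 (-0.46), Ndufs8 (-0.20), Ndufv1 (-0.205) and Ndufv2 (-0.069); of the further genes named, Esrra turned in WT (-0.14). The effective library sizes differ between LPS and unstimulated libraries, which is what this setting removes.

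Leaving out 1 library gave 14 to 22 rises in D316Y, the lowest without LPS replicate 1, and 19 to 30 in WT, the lowest without LPS replicate 2. Of all genes, 15% to 18.5% rose in D316Y and 14.6% to 17.6% in WT in these fits. Array weights, whose estimate stopped before its tolerance in 1 fit, gave 32 rises in D316Y and 37 in WT, where 27.1% and 31.6% of all genes rose. They gave 1 fall in each genotype, where 27.3% and 31.8% of all genes fell. In WT they turned Ndufaf2 (-0.23) and Ndufa4 (-0.042). Without both unstimulated replicate 1 libraries and WT LPS replicate 1, also added, 28 rose and 2 fell in D316Y (23.9% and 23.7% of all genes). In WT 37 rose and 1 fell (21.1% and 21.7% of all genes). Without both unstimulated replicate 1 libraries, Ndufaf2 (-0.096) and Ndufa4 (-0.099) turned in WT and Ndufa7 (-0.046) in D316Y; with WT LPS replicate 1 left out as well, Ndufaf2 (-0.067) and Ndufa7 (-0.046) did. Leaving out 1 library turned 5 member values that did not pass, which ranged in D316Y between -0.046 and 0.31 for Ndufa7 and between -0.39 and 0.086 for Ndufa4. In WT they ranged between -0.096 and 0.17 for Ndufaf2, between -0.099 and 0.70 for Ndufa4 and between -0.095 and 0.19 for Ndufs1. The cause of these moves was not tested. Of 1408 values of the 44 members under the alternatives to the LPS comparisons, 1197 kept direction and call, 108 lost the call, 55 gained it and 48 turned. The genotype and interaction comparisons had 0 members past the threshold under every alternative, while leaving out 1 library moved the genotype median between -0.13 and 0.10 with LPS and between -0.04 and 0.21 unstimulated.

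With the replicate block, 25 members rose in D316Y (Ndufb2, Ndufb9 and Ndufs4 added), where 19.1% of all genes rose. In WT 31 rose (Ndufb11 and Ndufv2 added, Ndufb7 lost), where 17.3% of all genes rose. Same-numbered libraries of these comparisons did not all deviate together. With 3 libraries a group, differences of the size of the standard errors, 0.11 to 0.45 log2 between genotypes, could not be told from 0. Larger ones could be missed too. In the simulated data, a difference of 1 log2 between genotypes passed for 62.4% of the changed genes unstimulated and 48.1% with LPS. For the interaction it passed for 33.3%. The changed genes were drawn from all genes, not from the members alone. Simulated libraries varied independently, with a single spread per gene pooled over the 4 groups. In the real data the median SE of the members was 0.21 unstimulated and 0.15 with LPS. The simulated shares therefore do not rank the 2 conditions, and may overstate what could be found unstimulated.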
